A study of Dirofilaria immitis with 5 samples.

Results

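Adult male Dirofilaria immitis, the filarial worm that causes heartworm disease in dogs, released small RNAs into culture medium, and the library made from that medium held 53 of the 1228 small RNA sequences of the study's table at 10 or more reads. These 53 rows held 99.1% of the male table reads. The sparsest, asu-lin-4-5p, had 10 reads, and the candidate PC-3p-408_2810 just missed the minimum with 9. The 53 rows, called members here, were chosen on the male read count alone, so their presence in males is not a result, and each was set beside the other libraries. The libraries were adult males, microfilariae (the larvae that circulate in blood), third-stage larvae (L3, the infective form), fourth-stage larvae (L4, the form after the next molt) and adult females. Each came from medium in which live whole worms had been kept, each was concentrated and extracted in the same way, and each group had 1 library. There was therefore no spread between replicates and no test between stages, and the statements below compare libraries. The labels used here give no age, worm number or culture time. No row of the table marks sex by its name, so the label of the male library could not be checked from the data.

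A miRNA is a short RNA that pairs with messenger RNAs mainly through its seed, bases 2 to 8, and lowers their output. Nematodes release miRNAs, and filarial miRNAs have been found in the blood of infected hosts. The best known nematode miRNAs, lin-4 and let-7, time the larval stages in Caenorhabditis elegans. In medium from whole worms, fewer cells that release a miRNA and less of it released per cell cannot be told apart.

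The male table held 32983 reads, which was 1.0% of that library's mappable reads. The other tables ranged from 34448 reads (0.870%) in L3 to 727018 (20.2%) in microfilariae. In the male library 43.8% of the adapter-containing reads were under 18 nt and 5.76% were over 25 nt, the highest and the lowest such shares of the 5 libraries. The part of this size profile in the results was not tested. A share below is a percentage of a library's table reads, a fold is a ratio of 2 shares, and parentheses hold exact 95% binomial intervals (Clopper-Pearson for shares, conditional for folds). These cover counting error only, because each group had 1 library. The reads are PCR copies with no molecular identifiers, so the intervals can be too narrow even for that error. A count of 0 allows a share of up to 0.0091% in males, taking 3 counts as the limit.

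The sequences that carry the male profile are shown first, as the table gives them, 5′ to 3′ with the seed in capitals. The opening group holds lin-4 and the miR-100 family, which led the male table, each with a scarcer row that differs by 1 base.
bma-lin-4: tCCCTGAGacctctgctgcga
asu-lin-4-5p: tCCCTGAGacctctgctgtga
bma-miR-100d_R+1: tACCCGTAgctccgaatatgtgt
bma-miR-100a_R+1: aACCCGTAgtttcgaacatgtgt
bma-miR-100b_R+1: aACCCGTAgatccgaacttgtgt
bma-miR-100c_R+1_1ss12CT: aACCCGTAgaattgaaatcgtgt
PC-5p-700_1781: aACCCGTAgaattgaaatcgtgg
The next group holds sequences whose share was higher in males than in every other library, with bma-miR-57 beside its male variant.
asu-miR-279a-3p_1ss9TA: tGACTAGAaccatactcagct
asu-miR-5360-5p: aCGAATCGtcgaatcggatgtct
bma-miR-2c_1ss20TC: cATCACAGcacgattcggccc
PC-3p-2685_459: cATCACAGcacgattcggcccgt
PC-5p-2587_476: cATTTAGTggaccaatttttt
PC-3p-5721_189: tAATATCAtatgaaagccgaaga
bma-miR-1822: gAGCTGCCccttgaaagactaa
bma-mir-5838-1-p5: tGCTAAACcgtaaatgctcct
asu-miR-57-5p_1ss24TG: tACCCTGTagtaccgagctgtgtgt
bma-miR-57: tACCCTGTggtaccgagctgtgtct
The last is the embryonic miRNA miR-36, shown for its fold between the sexes.
bma-miR-36a_R+1_1ss19GA: tCACCGGGtgcacattcgatc
Of the 53 members, 30 carry the name of a nematode miRNA and 23 are the authors' predicted candidates, with names starting PC. The members held 42 different seeds, and 16 members shared a seed with another member. The miR-100 seed was the most common among them, with 5 members.

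The male medium combined the leading miRNA of the larvae with the leading family of the females and microfilariae. bma-lin-4 held 35.8% (35.2 to 36.3) of the male table, with 11792 reads. It held 0.00426% in microfilariae, 70.6% in L3, 89.6% in L4 and 0.245% in adult females. The male share was thus 0.506-fold (0.495 to 0.518) that of L3 and 0.399-fold (0.392 to 0.406) that of L4. These folds depended on the scaling, and under TMM (a trimmed-mean scaling between libraries) they were 0.0746 over L3 and 0.0446 over L4. The 1-base variant asu-lin-4-5p, which differs from bma-lin-4 by C19T (bases counted from the 5′ end), had 10 reads in males. It made up 0.0847% (0.0406 to 0.156) of the reads of both lin-4 rows in males, 0.0493% in L3 and 0.0451% in L4, and these intervals overlapped.

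The miR-100/miR-51 family is old among animals, and C. elegans embryos need its nematode branch. It followed with 31.3% of the male table. Its share was 70.9% in microfilariae, 7.48% in L3, 2.79% in L4 and 63.2% in females. By share all 4 members of the family lay above both larval libraries in males, though bma-miR-100b_R+1 was not separated from L3 (1.04-fold, 0.952 to 1.13). That row lay below both larval libraries without bma-lin-4, under TMM scaling and with the authors' size parameter, and below L4 per mappable read. bma-miR-100a_R+1 lay below L3 under TMM scaling and with the authors' parameter, and narrowly below L4 with the latter. bma-miR-100d_R+1 held 14.9% of the male table, against 31.8% in microfilariae, 1.64% and 0.711% in L3 and L4 and 22.4% in females. bma-miR-100a_R+1 held 10.7%, 24.3%, 2.54%, 1.16% and 21.9% in the same order. bma-miR-100b_R+1 had the lowest fold over females of the 4, with 3.10% in males, 10.3% in microfilariae, 2.98% in L3, 0.778% in L4 and 16.9% in females. Its male share was 0.184-fold (0.173 to 0.195) the female one, while for bma-miR-100c_R+1_1ss12CT, with 2.68% in males and 1.97% in females, it was 1.36-fold (1.27 to 1.46). Per mappable read all 4 lay below females.

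**Figure D1:**
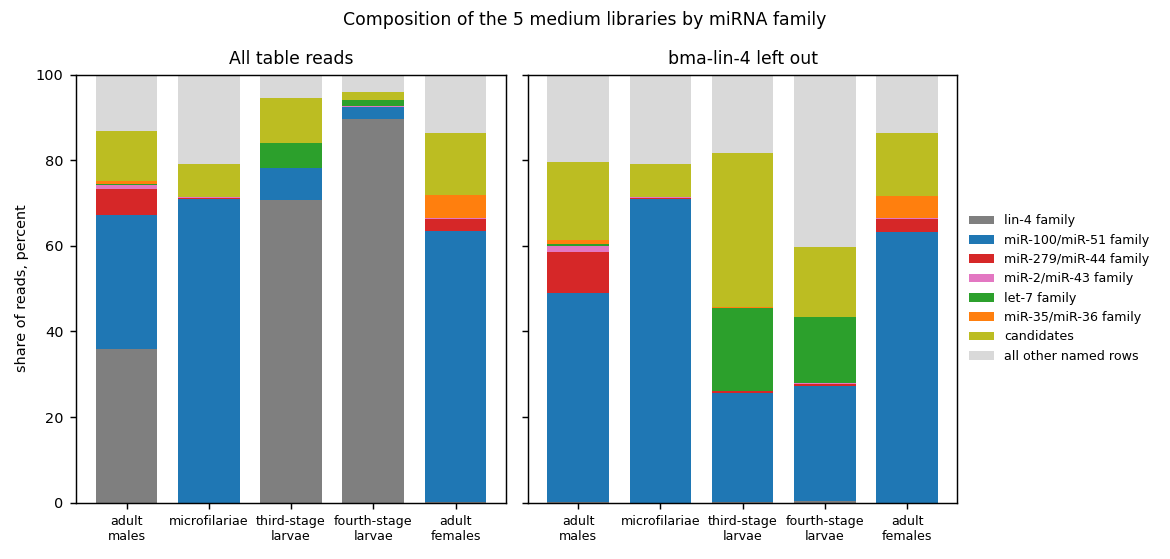
Stacked bars give each library's reads by miRNA family in percent, with all table reads on the left and bma-lin-4 left out on the right. With lin-4 left out, the miR-100/miR-51 family holds 48.8% of the male reads, between the larvae (25.4% and 26.9%) and the females (63.3%).

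Since bma-lin-4 took so much of 3 libraries, the shares were also computed without it. Leaving it out multiplied all remaining shares by 1.56 in males, 3.40 in L3 and 9.64 in L4. The overlap of 2 libraries, the sum over rows of the smaller of both shares, was 43.9% between males and microfilariae, 48.4% with L3, 43.0% with L4 and 48.0% with females. Without bma-lin-4 it was 64.5% with microfilariae, 32.3% with L3, 41.9% with L4 and 65.7% with females. With bma-lin-4 left out, males thus shared more of their composition with females and microfilariae than with either larval stage.

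By share, 22 of the 53 members were higher in males than in all 4 other libraries and 0 were lower than in all 4. Over all 190 rows that reached 10 reads in any library, the male share was the highest for 19.5% and the lowest for 7.89%. The member counts cannot be read against these as evidence, because a row entered the members through its male reads. Counted in the same way on each library's own rows, the share highest in that library was 41.5% for males, 42.4% for microfilariae, 29.7% for L3, 7.94% for L4 and 50% for females, so the male value lay within the range of the others. For 20 of the 22 rows the intervals of all 4 folds lay above 1. The others were bma-miR-228 and asu-miR-81b-3p_1ss18TC, whose intervals against microfilariae reached 1 or less. Each of the 22 rows was chosen for its highest share in males, on the same counts that gave these intervals. The intervals are thus no separate support, and the sum of the 22 rows had to be highest in males. The rows summed to 22.5% of the male reads, 4.22% in microfilariae, 1.25% in L3, 0.831% in L4 and 8.14% in females. Without bma-lin-4 the same rows summed to 35%, 4.22%, 4.24%, 8% and 8.16% in that order.

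Among the named miRNAs in that set, asu-miR-279a-3p_1ss9TA was the most abundant. In fruit flies miR-279 acts in the formation of sensory neurons. It had 2052 reads or 6.22% (5.96 to 6.49) in males, 0.257% in microfilariae, 0.180% in L3, 0.0359% in L4 and 2.10% in females. The male share was 2.96-fold (2.81 to 3.10) that of females, the next highest library. It was the only member of the miR-279/miR-44 list, whose other strongly represented row, bma-miR-45_R-1, went the other way, with 1 read in males and 2763 in females.

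bma-miR-2c_1ss20TC, of the invertebrate miR-2 family, which in fruit flies represses genes that promote cell death, also belonged to the set. It held 0.925% (0.824 to 1.03) of the male reads, 0.257% in microfilariae, 0.00871% in L3, 0.0202% in L4 and 0.219% in females. The fold over microfilariae, the next highest library, was 3.60 (3.18 to 4.07). The candidate PC-3p-2685_459 is the same sequence with 2 more bases at its 3′ end (23 against 21 nt), and it held 0.588%, 0.0707%, 0.0029%, 0.00092% and 0.0226% in the same order. Its fold over microfilariae was 8.32 (7.02 to 9.83), and in males it had 194 reads.

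asu-miR-5360-5p held 2.70% of the male reads and 2.04% of the female ones, and its fold of 1.32 (1.23 to 1.42) over females was small. It held 0.811% in microfilariae and 0.224% and 0.144% in the larvae. bma-miR-228, which in C. elegans is made in glia, was close between adults and microfilariae, at 2.05% in males, 1.89% in microfilariae and 1.8% in females, against 0.328% and 0.177% in L3 and L4, and its fold over females was 1.14 (1.05 to 1.23). asu-miR-81b-3p_1ss18TC, of the bantam/miR-80 family, had 33 reads in males, and its fold over microfilariae was 1.18 (0.803 to 1.67). By share the larval libraries were the lowest 2 for miR-279a, miR-2c, miR-5360 and miR-228, while for miR-81b L3 (0.0464%) lay above females (0.0356%). Without bma-lin-4 the larval libraries stayed the lowest 2 for miR-2c and miR-228 alone. Microfilariae were then the lowest for miR-279a, at 0.257% against 0.612% in L3 and 0.346% in L4. For miR-5360 L4 (1.39%) then lay above microfilariae (0.811%).

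bma-miR-1822 was found mainly in the adult libraries. It had 83 reads (0.252%) in males, 2 in microfilariae, 1 in L3, 0 in L4 and 56 (0.0149%) in females. Its male share was 16.9-fold (11.9 to 24.2) that of females. The muscle miRNA row cbr-miR-1_R+2 had 11 reads in males against 61 in microfilariae, 1 and 2 in L3 and L4 and 17 in females, and its fold over microfilariae was 3.97 (1.89 to 7.62). The other miR-1 row, cel-miR-1-3p_R-1, held 98.6% of the reads of both rows in microfilariae and 98.3% in females and had 0 reads in males. miR-1 acts in muscle and at its synapses in C. elegans.

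The row cel-mir-5592-1-p3_1ss8TC had the greatest fold over the next highest library among the 22, at 136 (108 to 174) over microfilariae. It had 513 reads (1.56%) in males, 83 in microfilariae, 2 in L3, 5 in L4 and 29 in females. The row is 18 nt long and has 1 inexact match listed in the dog genome.

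A pair of named rows had no read outside the male library. asu-miR-57-5p_1ss24TG had 31 reads, and its share was at least 10.8-fold higher in males than in L3, the shallowest comparison, and at least 228-fold higher than in microfilariae, taking 3 counts where there were 0. The exact intervals of these folds began at 8.27 and 174. It differs from bma-miR-57 by G9A and C24G. It made up 18.5% (12.9 to 25.2) of the reads of both miR-57 rows in males, against 0 of 23516 reads in microfilariae and 0 of 2821 in females, where 0 reads allowed at most 0.0157% and 0.131% by the exact interval. bma-mir-5838-1-p5 had 13 reads, at least 4.53-fold higher than in L3 and at least 95.5-fold higher than in microfilariae, with intervals that began at 3.18 and 67.2. Both rows, and the candidate PC-3p-46709_11 (12 reads in males and 5 in females), became rows of 10 or more reads through the male library alone and so had to differ.

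Of the 22 rows, 12 were candidates, and they were not placed in a genome here. PC-5p-799_1592 was the most abundant, with 4.70% (4.47 to 4.93) in males, 0.391% in microfilariae, 0.224% in L3, 0.198% in L4 and 1.27% in females. Its fold over females was 3.69 (3.48 to 3.91). PC-3p-2841_427 begins with the whole of it and had almost the same fold over females, 3.81 (3.32 to 4.35). Both rows match dog chromosomes without a mismatch in the authors' listing, and the part of dog RNA in their values was not tested. PC-5p-2587_476, with no dog match listed, had 289 reads in males (0.876%), against 0.108% in microfilariae, 0.029% and 0.0659% in L3 and L4 and 0.0335% in females, a fold of 8.09 (7.05 to 9.27) over microfilariae. PC-3p-5721_189 had 119 reads in males, 211 in microfilariae, 0 in L3, 2 in L4 and 102 in females, and its fold over microfilariae was 12.4 (9.84 to 15.6). The other candidates ran from PC-3p-4719_239, 1.52-fold (1.19 to 1.92) above females, to PC-5p-20085_35, 4.37-fold (2.72 to 6.85) above females. Among them PC-3p-5368_204 and PC-5p-6074_174 share a run of 17 bases, so the 22 rows are not 22 independent sequences.

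**Figure D2:**
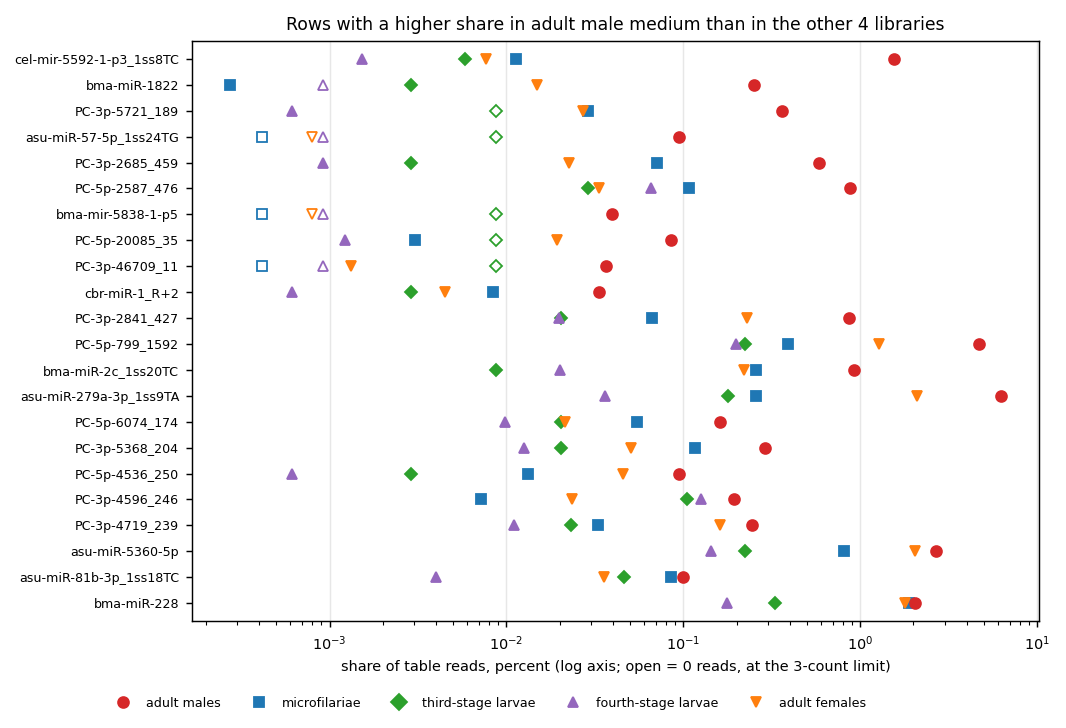
Points give the share of table reads in percent on a log axis for the 22 rows highest in males, 1 row per line and 1 symbol per library, with open symbols at the 3-count limit where a library had 0 reads. The male points lie to the right of the others, by 136-fold for cel-mir-5592-1-p3_1ss8TC at the top and 1.08-fold for bma-miR-228 at the bottom.

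The remaining 31 members fell into a few patterns by share. In 11 of them males lay above both larval libraries and below both microfilariae and females, among them bma-miR-100d_R+1, bma-miR-100a_R+1, bma-miR-100b_R+1 and bma-bantam_R+1. Bantam, which promotes growth and survival in fruit flies, held 1.18% in males, 2.41% in microfilariae, 0.308% and 0.217% in L3 and L4 and 2.36% in females. Without bma-lin-4 it lay below L4, at 1.83% in males and 2.09% in L4, as did bma-miR-100b_R+1, asu-miR-86-5p, PC-3p-183_5819 and PC-5p-1987_638. The bantam/miR-80 family as a whole was lowest in males under TMM scaling and with the authors' size parameter. By share the pattern also held for asu-miR-86-5p, with 12 reads in males, though it was not separated from L3 (1.25-fold, 0.496 to 3.24). In another 11 males lay above both larval libraries and between microfilariae and females.

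bma-miR-36a_R+1_1ss19GA, of a family that C. elegans embryos require, had 183 reads (0.555%) in males, 1 in microfilariae, 2 in L3, 4 in L4 and 19034 (5.06%) in females. The male share was 0.110-fold (0.0942 to 0.127) the female one. For bma-miR-45_R-1, another row abundant in females, the same fold was 0.00413 (0.000104 to 0.023). cel-miR-34-5p_R+1_1ss1AT, of a stress response family, had 40 reads (0.121%) in males and 1.99% in microfilariae, a fold of 0.0609 (0.0435 to 0.0829), against 0.0261% and 0.00705% in L3 and L4 and 0.0601% in females. asu-miR-71-5p_R-2, of the longevity miRNA miR-71, held 1.57% in males, 5.47% in microfilariae, 0.122% and 0.0914% in L3 and L4 and 1.49% in females, a fold over females of 1.06 (0.964 to 1.16). asu-miR-87b-3p, from the list of neuronal miRNAs, had 50 reads in males (0.152%), 0.269% in microfilariae, 3 and 2 reads in the larvae and 0.0955% in females.

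By share males lay below both larval libraries and above both microfilariae and females in 4 members: both lin-4 rows, asu-let-7-5p and bma-miR-92_R+2. For asu-lin-4-5p, with 10 male reads, the folds over L3 (0.87, 0.337 to 2.2) and L4 (0.749, 0.351 to 1.42) were not separated from 1. Nor were those of bma-miR-92_R+2 over microfilariae (1.06, 0.974 to 1.16) and females (1.02, 0.931 to 1.11). asu-let-7-5p held 0.243% in males, 0.0241% in microfilariae, 5.21% in L3, 1.44% in L4 and 0.0739% in females, and its male share was 0.0465-fold (0.0367 to 0.0582) that of L3, and 0.00686-fold under TMM. The authors list exact dog matches for this row. bma-miR-92_R+2 spanned a narrow range, at 1.70% in males, 1.60% in microfilariae, 2.29% and 2.32% in L3 and L4 and 1.67% in females. Without bma-lin-4 it held 2.64% in males, 1.60% in microfilariae, 7.79% in L3, 22.3% in L4 and 1.67% in females. The place above microfilariae and females was lost per mappable read for asu-let-7-5p and bma-miR-92_R+2. Both rows were then lower in males than in every other library.

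By share another 3 members lay between the larval libraries and above both microfilariae and females. Of these, bma-miR-5364 held 0.452% in males, 0.00055% in microfilariae, 0.496% in L3, 0.332% in L4 and 0.113% in females. This made it 4.0-fold (3.29 to 4.83) higher in males than in females by share. Per mappable read it was lower, at 45.2 RPM (reads per 1000000 mappable reads) in males and 137 RPM in females. Its share was not separated from that of L3 (0.91-fold, 0.726 to 1.14). Nor was that of PC-3p-1789_713 from microfilariae (1.01-fold, 0.674 to 1.45). Without bma-lin-4 both of these rows lay below both larval libraries, PC-3p-1789_713 only narrowly below L3 (0.956-fold). hco-miR-9, of a miRNA known from nervous systems and also with exact dog matches, had 25 reads in males after rounding, or 2.18-fold (1.36 to 3.36) the female share. In the last 2, bma-miR-57 and bma-miR-50, males lay between the larval libraries and below both microfilariae and females. The share of bma-miR-50 was not separated from that of L3 (0.884-fold, 0.606 to 1.29). bma-miR-57 held 0.415% in males and 3.23% in microfilariae, a fold of 0.128 (0.108 to 0.152), against 0.197% and 0.737% in L3 and L4 and 0.750% in females.

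Each other library was then set against males alone. Of the 53 members, 25 were at least 2-fold higher in males than in females, 13 were at least 2-fold lower and 15 were within 2-fold. The 140 rows that reached 10 reads in males or females gave 20% higher and 33.6% lower by the same rule. Against microfilariae 27 members were at least 2-fold higher and 11 lower, with 27.8% and 17.2% of 151 rows. Against L3 42 were higher and 2 lower, with 66.7% and 19% of 63 rows. Against L4 45 were higher and 2 lower, with 67.5% and 10.4% of 77 rows. The median log2 fold over the members was 1.11 against microfilariae, 2.85 against L3, 4.37 against L4 and 0.67 against females. Over all rows compared the medians were 0.00, 2.18, 2.84 and 0.00 in the same order. The members' higher counts follow in part from their choice on male reads, so nothing is drawn from the excess over these shares.

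**Figure D3:**
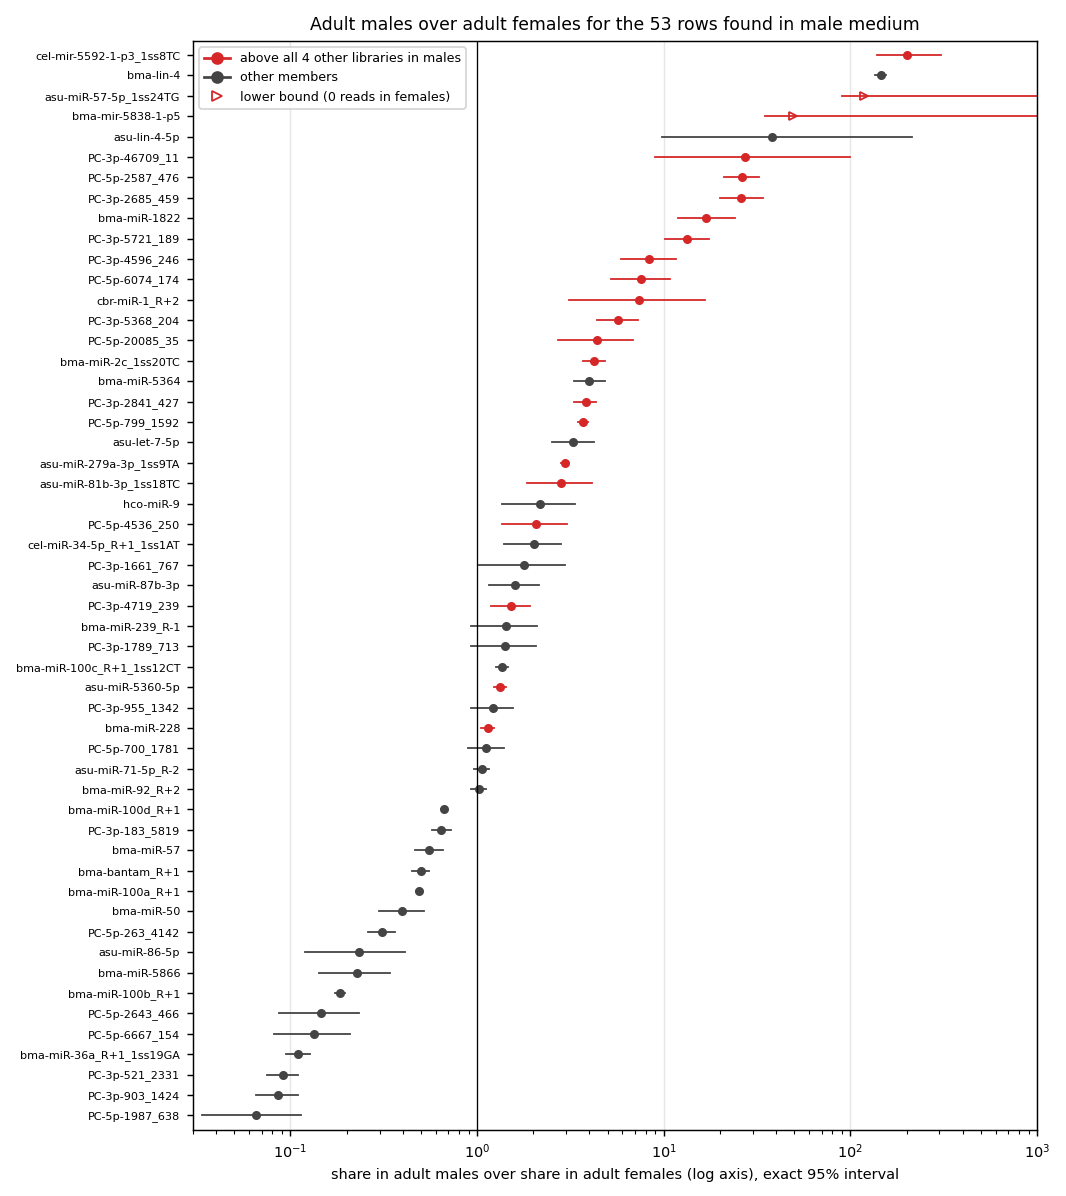
Points give the share in adult males over that in adult females on a log axis for each of the 53 members, with exact 95% intervals, and red marks the 22 rows highest in males. The folds run from 202 for cel-mir-5592-1-p3_1ss8TC at the top to 0.065 for PC-5p-1987_638 at the bottom, and open triangles are lower bounds at 0 female reads.

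Without bma-lin-4 the larval comparisons became more balanced. Of the remaining 52 members, 32 were at least 2-fold higher in males than in L3 and 7 lower, against 51.6% and 27.4% of 62 rows. Against L4 34 were higher and 8 lower, against 44.7% and 38.2% of 76 rows. Against microfilariae 27 were higher and 8 lower, with 31.3% and 14% of 150 rows, and against females 31 were higher and 10 lower, with 27.3% and 23.7% of 139 rows. The number of members above all 4 others stayed at 22, of which 20 were the same rows, or 42.3% of the 52, with 20.6% of all rows. PC-3p-4596_246 and asu-miR-81b-3p_1ss18TC left, and bma-miR-239_R-1 and PC-3p-955_1342 entered. Now 3 members (5.77%, with 11.6% of all rows) lay below all 4 others: bma-miR-100b_R+1 (4.82% in males against 7.50% to 16.9% elsewhere), bma-miR-57 (0.647% against 0.671% to 7.10%) and asu-miR-86-5p (0.0566% against 0.0987% to 0.320%). The gap of bma-miR-57 to L3, 0.963-fold, was small. asu-miR-86-5p had 12 reads in males and 10 in L3, and its fold over L3 was 0.574 here. With bma-lin-4 kept, its share was not separated from L3 (1.25-fold, 0.496 to 3.24).

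Per mappable read 5 of the 22 rows stayed above all 4 others: cel-mir-5592-1-p3_1ss8TC, bma-miR-1822, asu-miR-57-5p_1ss24TG, bma-mir-5838-1-p5 and PC-3p-46709_11. The same 5 had the highest value under each of the 5 scalings tried, but 3 of them, the last 3 named, reached 10 reads in males alone, so their place carries no information. For bma-mir-5838-1-p5 and PC-3p-46709_11 the bound against L3 also lay under 1 under TMM, at 0.667 and 0.616, and with the authors' parameter, at 0.883 and 0.815. cel-mir-5592-1-p3_1ss8TC had 156 RPM in males, against 23.1 in microfilariae, 0.505 and 0.778 in L3 and L4 and 9.38 in females. bma-miR-1822 had 25.2 RPM in males and 18.1 in females, and under 1 in each other library, and its fold over females of 1.39 (0.98 to 1.99) was not separated from 1. For PC-3p-46709_11 the fold over females was 2.25 (0.739 to 8.16). asu-miR-279a-3p_1ss9TA, by contrast, had 623 RPM in males and 2561 in females. For bma-lin-4 the order of the libraries was kept, with 3581 RPM in males, 8.62 in microfilariae, 6139 in L3, 45507 in L4 and 298 in females.

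Ratios of 2 forms within a library do not depend on the scaling. The form of miR-2 with 2 more bases, PC-3p-2685_459, made up 38.9% (34.6 to 43.3) of the reads of both miR-2 rows in males. It made up 21.6% (19.9 to 23.3) in microfilariae, 4.35% (0.906 to 12.2) in L4 and 9.35% (7.54 to 11.4) in females, and L3 had 4 reads in all. The male interval lay above those of microfilariae, L4 and females. The pair PC-5p-799_1592 and PC-3p-2841_427 behaved otherwise, with the longer form at 15.6% (14 to 17.4) in males, 14.5% (13.3 to 15.8) in microfilariae and 15.2% (14.3 to 16.2) in females, and 9.13% (7.12 to 11.5) in L4. PC-5p-700_1781, which differs from bma-miR-100c_R+1_1ss12CT by T23G at the last base, made up 9.23% (7.49 to 11.2) of both in males, 9.15% (8.86 to 9.46) in microfilariae, 5.15% (3.29 to 7.62) in L4 and 11.0% (10.3 to 11.7) in females. For both of these pairs the male interval overlapped those of microfilariae and females.

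**Figure D4:**
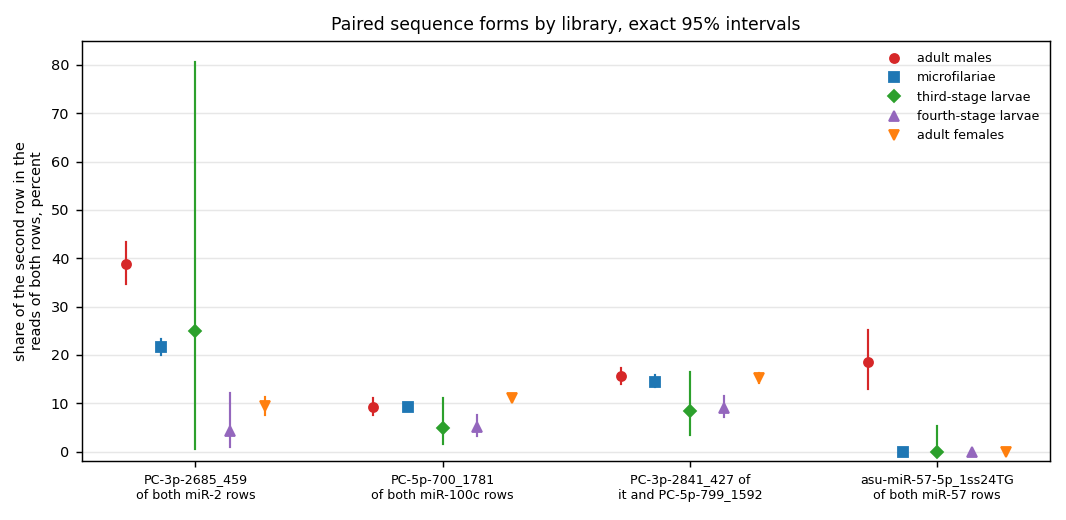
Points give, for 4 pairs of related rows, the percentage of the reads of both rows that the second row holds in each library, with exact 95% intervals. For miR-2 the male point lies at 38.9% and the females at 9.35%, while for the pair with PC-5p-799_1592 the males (15.6%), microfilariae (14.5%) and females (15.2%) overlap.

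By family list, males led for 2 of the 15 lists by share, miR-2/miR-43 (0.931%) and miR-279/miR-44 (6.23%), each through 1 member. Neither list led per mappable read, and both led under the other scalings. Males had the lowest share for 1 list, the muscle miRNAs, though this was not separated from L4 (0.892-fold, 0.434 to 1.65). The list stood at 0.0334% against 0.606% in microfilariae, 0.102% and 0.0374% in L3 and L4 and 0.268% in females. That list's main row, cel-miR-1-3p_R-1, had 0 reads in males, 4330 in microfilariae, 20 and 60 in L3 and L4 and 989 in females. This is at least 65.5-fold lower than in microfilariae (53.2 by the exact interval), and the row is listed with dog genome matches. With such rows left out, 5 lists were highest in males, the muscle list among them through cbr-miR-1_R+2, and 0 were lowest. The number of lists lowest in males was 3 per mappable read, 4 under TMM and 3 with the authors' parameter. Both rows share their start and differ in length, so reads of 1 miRNA can be split between them.

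Some rows had under 10 reads in males although the shares of other libraries predicted 10 or more at the male depth. At the male depth, the share of at least 3 other libraries predicted 10 or more reads for 26 rows, and 2 of these had fewer. They were cel-miR-1-3p_R-1 and the candidate PC-3p-408_2810, with 9 reads in males against 5206 in microfilariae, 36 and 159 in L3 and L4 and 666 in females. PC-3p-408_2810 was not separated from L4 (0.56-fold, 0.251 to 1.09). By the female shares alone 60 rows were predicted, and 19 of them had under 10 reads in males, 6 of them 0. Among the 19, cel-miR-71-5p_R+1 (0.499-fold, 0.18 to 1.12) and PC-5p-7477_133 (0.479-fold, 0.153 to 1.15) were not separated from females. By the shares of L3 34 were predicted and 10 were under 10 in males, among them PC-3p-389_2939, which had 0 reads in males and in both microfilariae and females, 3219 in L3 and 2060 in L4. The authors list 7 dog genome matches for it.

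In sequence, of the 22 rows highest in males, 7 began with T and 7 had dog genome matches listed, against 17 and 5 of the other 31 members. Lengths ran from 18 to 25 nt in both sets, with medians of 21.5 and 22 nt. Over all 190 rows that reached 10 reads in any library, 78 (41.1%) began with T and 32 had dog matches. Whether the 22 rows differ in sequence from the others was not tested. Candidates held 11.7% of the male reads, 7.75% in microfilariae, 10.6% and 1.70% in L3 and L4 and 14.6% in females. The order of the libraries changed without bma-lin-4, at 18.2% in males, 7.75% in microfilariae, 36% in L3, 16.4% in L4 and 14.7% in females. Rows with listed dog matches held 9.96% of the male reads, and with them left out 15 of the 22 rows remained, all 15 still above the 4 others.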

How the data were processed

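The series gave 1 table of small RNA sequences for the 5 libraries. The submitters' processing notes name bcl2fastq 1.8.4 and Bowtie. Reads kept were 18 to 25 nt long once adapters had been trimmed, per the file headers. The sources used here give no aligner settings, miRNA release or worm genome build. The deposited raw columns hold estimated counts per distinct sequence, which were rounded to whole numbers (9 male values were fractional). The deposited signal columns are the raw counts divided by the authors' library size parameter, and only that parameter was used, as an alternative. A raw 0 stands as 0.001 there. Of the table's lines, 1 was not analysed here.

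Rows with 10 or more male reads were the members. Shares were of each column's sum. A fold against 0 reads used 3 counts in that library. With 1 library per group no p-value was computed. The rule for named rows took the 12 most abundant in males, the 10 above all others with the greatest smallest fold, up to 10 below all others, up to 10 scarce in males by at least 3 other libraries, and members of 15 family lists. Other rows were named after their values were seen. Members and lists were chosen with earlier results of these data known. TMM factors came from edgeR 4.0.16. Python 3.11.15 and scipy 1.17.1 computed intervals, which were tested on simulated data. The simulated counts were drawn with counting error alone, as the intervals assume, so this checks the computation and not the fit to these libraries.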

Additional observations from a re-analysis of the deposited data

How the results depend on the processing

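The count of members above all 4 other libraries (22) was 5 per mappable read, and between 16 and 22 under the other alternatives. The count below all 4 (0) became 3 without bma-lin-4, 2 per mappable read, 8 under TMM scaling and 6 with the authors' parameter. The 2 per mappable read were asu-let-7-5p and bma-miR-92_R+2. Rows at least 2-fold higher in males than in microfilariae (42) became 9 per mappable read, 23 under TMM and 26 where the interval had to pass 2-fold, and those lower (26) became 134 per mappable read and 64 under TMM. Against third-stage larvae the higher count (42) became 16 under TMM and 21 with the authors' parameter, and the lower count (12) became 25 under TMM, 24 with the authors' parameter and 2 without rows matching the dog genome. Against fourth-stage larvae the higher count (52) became 34 without bma-lin-4, 29 under TMM and 28 with the authors' parameter, and the lower count (8) became 29 without bma-lin-4, 26 per mappable read, 33 under TMM, 35 with the authors' parameter, 1 without dog matches and 4 by interval. Against females the higher count (28) became 8 and the lower count (47) 127 per mappable read, and the lower count 28 by interval.

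Per mappable read the fold over the highest other library turned below 1 for asu-miR-279a-3p_1ss9TA (0.243), PC-5p-799_1592 (0.304), cbr-miR-1_R+2 (0.197), bma-miR-2c_1ss20TC (0.178), asu-miR-5360-5p (0.109), PC-5p-6074_174 (0.146), PC-5p-4536_250 (0.17), PC-5p-2587_476 (0.401), PC-5p-20085_35 (0.36), PC-3p-5721_189 (0.616), PC-3p-5368_204 (0.123), PC-3p-4719_239 (0.125), PC-3p-4596_246 (0.304), PC-3p-2841_427 (0.313) and PC-3p-2685_459 (0.412), as did that of bma-miR-5364 over females (0.329). The folds of bma-miR-228 (0.0536) and asu-miR-81b-3p_1ss18TC (0.0583), whose intervals already reached 1, also lay below 1 there. Under TMM, of rows whose intervals had lain above 1, it turned for asu-miR-5360-5p (0.745), PC-3p-5368_204 (0.889), PC-3p-4719_239 (0.857) and PC-3p-4596_246 (0.172), and the last also without bma-lin-4 (0.249) and with the authors' parameter (0.162). Each scaling applies 1 factor per library. Per mappable read the log2 fold of males moved by -4.34 against microfilariae, 0.20 against third-stage larvae, -2.34 against fourth-stage larvae and -3.60 against females. Under TMM it moved by -1.48, -2.76, -3.16 and -0.83 in that order. The fold of bma-lin-4 over third-stage larvae (0.506) became 0.0746 under TMM and 0.0987 with the authors' parameter, and over fourth-stage larvae (0.399) 0.0446 and 0.042. No paired analysis was possible because each group has 1 library. The male depth limits rows under about 10 reads.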
